A study of Mus musculus with 99 samples.

Results

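The 10 genes described here encode fast and slow forms of proteins that set how muscle contraction answers calcium: the troponins Tnnt1, Tnnt3, Tnni1, Tnni2, Tnnc1 and Tnnc2, the tropomyosins Tpm1 and Tpm3, and the myosin light chains Myl2 and Myl3. They were chosen by name, 10 of 35870 genes counted, and all 10 passed the filter on low counts in every tissue. Polyadenylated RNA was sequenced from the gastrocnemius, the quadriceps and the whole spinal cord of male wild type C57BL/6 mice. The 3 conditions were exercised at 18 months, sedentary at 18 months and sedentary at 10 months, and the labels do not say what the exercise was. They held 13, 10 and 10 libraries in gastrocnemius, 12, 9 and 10 in quadriceps, and 13, 10 and 10 in cord. No allele or agent separates the groups, and every mouse was perfused before the tissues were frozen.

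Total counts ran from 29.06 to 62.77 M per library, and the 10 genes together took 4.62 to 9.25% of the counts in muscle and 0.032 to 0.061% in cord. Levels are given as TPM, which scales every library to the same total and corrects for gene length. Labelled tissues matched their markers: 7 neuron genes summed to 6743 to 8563 TPM in cord and to at most 8.38 TPM in muscle. The labels do not say that each library is a separate animal, so p-values measure the spread between these libraries. Libraries are named as in the labels, with Gas, Quad or SC for the tissue and a number. Gas_3.1, Gas_2.2 and Quad_3.1, all from 10 months, and SC_5.2 and SC_6.1, both sedentary at 18 months, deviated most from the other libraries of their tissue. Calls of the 10 genes that change without them are given both ways.

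Thin filaments are made of actin, tropomyosin and troponin. Troponin C binds calcium, troponin I holds the filament off in its absence, and troponin T ties both to tropomyosin, which covers the sites where myosin attaches. Slow fibres and fast fibres use different genes for these parts: Tnnt1, Tnni1, Tnnc1 and Tpm3 belong to the slow set and Tnnt3, Tnni2, Tnnc2 and Tpm1 to the fast set. Tnnc1 is also the troponin C of the heart, and Tpm1 is a main tropomyosin of fast fibres, heart and smooth muscle. Myl2 and Myl3 encode the regulatory and the essential light chain of slow and ventricular myosin, so they sit on the thick filament, and their fast partners are not among the 10 genes. Tropomyosin genes are also used outside muscle, where other isoforms stabilise the cytoskeleton.

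Gene positions are those of GENCODE M21 on GRCm38. The slow genes lie apart: Tnnt1 at chr7:4504570-4516382 (minus strand), Tnni1 at chr1:135779434-135810989 (plus), Tnnc1 at chr14:31208312-31211729 (plus), Tpm3 at chr3:90072649-90100902 (plus), Myl2 at chr5:122100951-122113472 (plus) and Myl3 at chr9:110741861-110769798 (plus). Of the fast genes, Tnni2 at chr7:142441808-142444410 and Tnnt3 at chr7:142498836-142516009, both on the plus strand, lie 54.4 kb apart with Lsp1 between them. Tnnc2 lies at chr2:164777161-164779967 and Tpm1 at chr9:67022590-67049406, both on the minus strand. Other genes share sequence with a few of these. Ube2c covers 74% of the 800 exon bases of Tnnc2 on the opposite strand, and had a median of 13 counts in muscle and 23 in cord. The transcripts of Tpm3 share 23.2% of their 50-base stretches with Tpm3-rs7, a copy that the count table does not list, so counts of Tpm3 are uncertain to that extent.

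Promoters are shown for the 3 slow troponins and Myl3, which varied together across muscle libraries, and for Tnnc2 and Tpm1 of the fast set. RefSeq windows on GRCm38.p6 ran from 250 bases before the start of transcription to 50 after it, and 8 of the 10 genes had 11 such windows. The windows printed are Tnnt1 at chr7:4515926-4516225 on the minus strand, Tnni1 at chr1:135799171-135799470 on the plus strand, Tnnc1 at chr14:31208062-31208361 on the plus strand, Myl3 at chr9:110763428-110763727 on the plus strand, Tnnc2 at chr2:164779685-164779984 on the minus strand and Tpm1 at chr9:67049164-67049463 on the minus strand. Each is written 5′ to 3′ on the strand of its gene. Capitals mark E-boxes, MCAT elements, TATA boxes and the CArG box, each searched on both strands. The letters searched for an E-box were CANNTG, which reads alike on both strands. An MCAT element was taken as the letters CATTCC in either orientation of the window. A TATA box was taken only where all of TATAAA was present.
Tnnt1: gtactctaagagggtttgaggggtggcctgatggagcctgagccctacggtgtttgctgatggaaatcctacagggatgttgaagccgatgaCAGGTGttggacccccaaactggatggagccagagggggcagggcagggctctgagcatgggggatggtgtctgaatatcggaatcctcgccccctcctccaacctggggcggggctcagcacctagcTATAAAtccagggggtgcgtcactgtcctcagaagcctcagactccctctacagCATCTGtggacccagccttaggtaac
Tnni1: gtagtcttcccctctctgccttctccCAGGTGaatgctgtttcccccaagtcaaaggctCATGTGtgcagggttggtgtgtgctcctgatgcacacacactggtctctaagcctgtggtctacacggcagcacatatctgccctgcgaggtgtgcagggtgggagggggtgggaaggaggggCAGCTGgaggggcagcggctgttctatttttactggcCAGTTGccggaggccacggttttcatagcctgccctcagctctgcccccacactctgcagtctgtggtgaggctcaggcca
Tnnc1: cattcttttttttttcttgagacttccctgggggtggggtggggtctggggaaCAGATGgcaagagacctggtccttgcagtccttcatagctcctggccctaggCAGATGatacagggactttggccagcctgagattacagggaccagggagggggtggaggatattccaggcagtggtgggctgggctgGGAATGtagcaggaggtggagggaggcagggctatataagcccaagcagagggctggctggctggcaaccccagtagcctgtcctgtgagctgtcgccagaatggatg
Myl3: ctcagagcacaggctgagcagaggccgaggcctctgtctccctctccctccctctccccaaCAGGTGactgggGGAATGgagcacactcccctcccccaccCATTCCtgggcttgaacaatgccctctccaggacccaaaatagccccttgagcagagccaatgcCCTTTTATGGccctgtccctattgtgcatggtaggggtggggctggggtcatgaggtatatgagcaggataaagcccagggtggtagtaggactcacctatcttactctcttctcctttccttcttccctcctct
Tnnc2: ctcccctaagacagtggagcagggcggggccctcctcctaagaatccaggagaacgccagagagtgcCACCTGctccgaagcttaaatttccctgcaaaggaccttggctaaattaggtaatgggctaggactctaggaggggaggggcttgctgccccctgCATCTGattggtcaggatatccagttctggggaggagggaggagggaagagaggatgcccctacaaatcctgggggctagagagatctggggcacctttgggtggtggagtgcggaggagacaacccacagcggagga
Tpm1: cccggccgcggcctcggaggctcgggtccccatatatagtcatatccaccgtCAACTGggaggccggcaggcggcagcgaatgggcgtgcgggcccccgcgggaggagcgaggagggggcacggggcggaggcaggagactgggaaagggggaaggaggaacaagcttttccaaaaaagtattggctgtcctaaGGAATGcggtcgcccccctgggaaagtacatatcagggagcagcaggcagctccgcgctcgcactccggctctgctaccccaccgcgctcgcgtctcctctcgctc

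E-boxes, the letters bound by the MyoD family, stood in all 11 windows of the 10 genes, and 72.3% of all 32851 windows hold one. The printed window of Tnni1 had 4, the first of them 224 bases before the start, and its other window, which overlaps it, had 2. Tnnt1, Tnnc1 and Tnnc2 had 2 each, and Myl3 and Tpm1 had 1 each. MCAT elements, bound by TEAD factors, stood in 3 of the 11 windows: those of Tnnc1, 58 bases before the start, of Tpm1, 56 bases before it, and of Myl3, which had 2. Of all windows, 14.7% hold one. The letters of a TATA box stood 30 bases before the start of Tnnt1 and in 1 window of Myl2, against 13.6% of all windows. In Myl2 they lay on the other strand, 216 bases before the start. Both Myl2 windows, from chr5:122092474 to chr5:122093238, end before the GENCODE start of Myl2 at chr5:122100951. No motif was therefore searched at that start. The windows of Tnnt1, Tnni1 and Myl3 lie wholly within their genes, past the GENCODE starts at chr7:4516382, chr1:135779434 and chr9:110741861. Those starts were not searched either. The window of Myl3 held a CArG box 85 bases before its start, a form found in 1.63% of all windows. A MEF2 site stood in 0 of the 11 windows and in 3.19% of all windows. None of the marked motifs overlapped another, and a match of letters is no proof of a bound site.

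In both muscles the fast genes stood far above the slow ones. Median levels over the 33 gastrocnemius libraries ran from 31386 TPM for Tnnc2 through 23241 for Tnnt3, 10314 for Tnni2 and 9194 for Tpm1 to 561 for Myl3, 424 for Myl2, 227 for Tnnc1, 185 for Tnnt1, 93.8 for Tnni1 and 38.4 for Tpm3. In every one of the 33 libraries each gene in this order lay above the next, so no pair of neighbours changed places. Quadriceps kept the same order, with medians of 29036 TPM for Tnnc2, 21412 for Tnnt3, 9879 for Tnni2 and 7686 for Tpm1, and 443 for Myl3, 253 for Myl2, 178 for Tnnc1, 132 for Tnnt1, 66.5 for Tnni1 and 33.2 for Tpm3. Here Myl2 lay above Tnnc1 in 30 of 31 libraries and Tnnc1 above Tnnt1 in 29 of 31, and the other neighbours held in all 31.

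**Figure D1:**
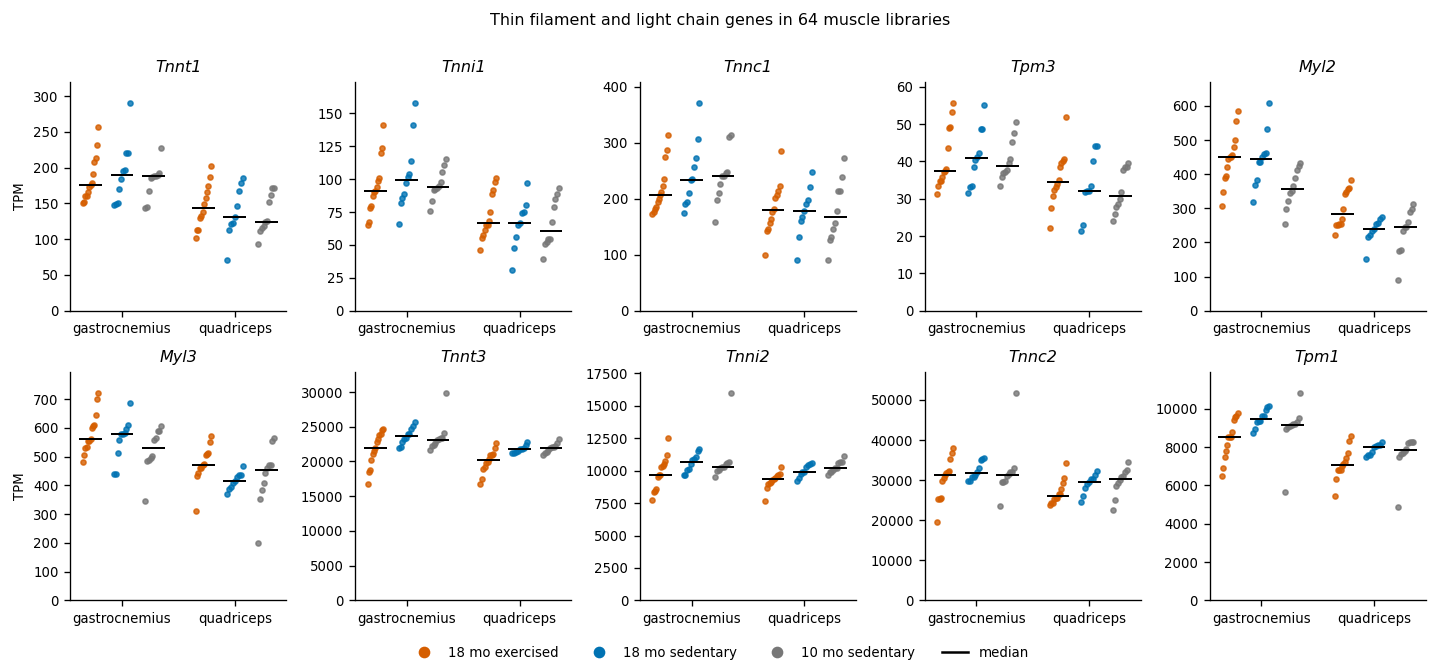
Levels of the 10 genes in TPM (linear axes from 0, a panel and a scale for each gene) in gastrocnemius and quadriceps, 1 point per library, coloured by condition with exercised 18-month libraries first; points within a group are sorted by value and the line is the median. The 4 fast genes sit between 4880 and 51805 TPM and the 6 slow genes between 21.2 and 722 TPM, with no overlap.

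In TPM the ratio of each fast gene to its slow partner was largest for tropomyosin and smallest for troponin I in gastrocnemius. That order rests on the deposited gene lengths, 8050 bases for Tpm3 and 4934 for Tpm1. In raw counts the tropomyosin ratio was not the largest. Median gastrocnemius counts were 768577 for Tpm1 and 5590 for Tpm3, against 871271 for Tnnt3 and 4812 for Tnnt1. Tnnt3 exceeded Tnnt1 by a median of 117-fold in exercised 18-month, 122-fold in sedentary 18-month and 124-fold in sedentary 10-month gastrocnemius. Its quadriceps values were 134-fold, 164-fold and 173-fold in the same 3 conditions. The troponin T ratio was thus higher in quadriceps in each condition, though the ranges over libraries overlapped, from 87.9 to 167 in gastrocnemius and from 104 to 299.8 in quadriceps. Tnni2 exceeded Tnni1 by a median of 103-fold over all gastrocnemius and 147-fold over all quadriceps libraries. For Tnnc2 over Tnnc1 the medians were 131-fold and 163-fold in the same muscles. Tpm1 exceeded Tpm3 by 227-fold in gastrocnemius and 220.1-fold in quadriceps, medians that lay close together. The slow form made up at most 1.45% of any of these 4 pairs in any muscle library. A bulk sample cannot tell fewer slow fibres from less slow RNA in each fibre.

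Exercise at 18 months, the comparison of exercised with sedentary mice of that age, changed none of the 10 genes in gastrocnemius beyond the spread between libraries. By edgeR's quasi-likelihood test 0 of 10 were called at an adjusted p under 0.05, where 0.106% of 15027 genes were. That share depends on the setting: edgeR called 16 genes in all, against 686 without the libraries named above, 1360 with the first part of the library number as a block and 1067 by limma-voom. At an unadjusted p under 0.05 the count was 0 of 10, and DESeq2 and edgeR with that block also called 0 of 10. With limma-voom 1 was called, the tropomyosin Tpm1, and its edgeR change was -0.16 on the log2 scale (95% interval -0.35 to 0.04, adjusted p = 0.483). Tpm1 had 6504 to 9774 TPM with a median of 8518 in exercised gastrocnemius, against 8723 to 10147 with a median of 9491 in sedentary gastrocnemius of the same age. The groups overlapped, and the lowest libraries were exercised ones. Log2 changes of the 10 genes lay between -0.16 for Tpm1 and 0.08 for Myl3, with a median of -0.09, where that of all genes was 0.00.

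In quadriceps the slow genes and the fast genes had exercise changes on opposite sides of 0, but again 0 of 10 were called by edgeR, where 0.757% of 14790 genes were. All 6 slow genes had positive log2 changes, with a median of 0.21, and all 4 fast genes negative ones, with a median of -0.05, where the median of all genes was -0.003. The slow genes varied together across libraries, as did the fast ones, so their shared signs are not separate observations. Each fast change was smaller than its SE. Myl2, the regulatory light chain, came nearest to the threshold. It had 221 to 382 TPM with a median of 283 in exercised quadriceps, against 149.99 to 275 with a median of 238 in sedentary 18-month quadriceps. Of 12 exercised libraries 8 lay above every sedentary one in CPM (counts scaled by library size) and the rest overlapped. Its log2 change was 0.42 (SE 0.16, 95% interval 0.10 to 0.73, adjusted p = 0.256 by edgeR), and it was the 1 gene of the 10 with an unadjusted p under 0.05. DESeq2 called 0 of 10 and limma-voom called 1, which was Myl2. It also passed without the 10-month library Quad_3.1, at 0.42 (adjusted p = 0.0453 by edgeR), and its adjusted p ran from 0.0409 to 0.487 over the other settings. Myl3, the essential light chain, followed with 0.26 (interval -0.01 to 0.54), Tnni1 with 0.23 (-0.11 to 0.56) and Tnnt1 with 0.19 (-0.11 to 0.48). On the fast side Tpm1 had -0.08 (-0.28 to 0.11), and Tnnt3, Tnni2 and Tnnc2 lay between -0.06 and -0.04.

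Other fibre genes did pass the test under exercise. From a list of 15 slow fibre genes outside the 10, 1 rose in gastrocnemius, the oxygen store myoglobin (Mb, log2 change 0.84). Of all genes, 0.106% were called in gastrocnemius and 0.757% in quadriceps. In quadriceps 4 of the 15 rose: Mb by 0.90, the calcium pump regulators Sln by 0.995 and Pln by 0.52, and the slow myosin binding protein Mybpc1 by 0.34. Within groups of muscle libraries these followed the slow troponins weakly, at r = 0.24 for Mb, 0.16 for Sln, 0.08 for Pln and 0.17 for Mybpc1. The slow myosin Myh7 (r = 0.76) and the slow calcium pump Atp2a2 (0.71), which followed them most closely, were not among the genes that rose. Whether the rises came from slow fibres was not tested. Of 16 fast fibre genes, the IIx myosin Myh1 rose in gastrocnemius by 1.06 and Mylk2, a kinase of the fast light chain, fell by 0.27. In quadriceps Myh1 rose by 0.84, the IIa myosin Myh2 rose by 0.83 and Mylk2 fell by 0.31. None of 19 further thin filament genes, among them Acta1, Neb and Tpm2, passed the test in either muscle. The 15 genes of the slow list had a median log2 change of 0.50 in quadriceps and 0.19 in gastrocnemius.

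Ageing without exercise, from the comparison of sedentary mice at 18 and at 10 months, changed 0 of the 10 genes in either muscle. The shares of all genes called were 0.153% in gastrocnemius and 0.352% in quadriceps. DESeq2 and limma-voom each called 0 in both muscles. At an unadjusted p under 0.05 edgeR counted 1 in gastrocnemius, Myl2, and 0 in quadriceps. Myl2 had 318 to 608 TPM with a median of 443 in sedentary 18-month gastrocnemius, against 253 to 433 with a median of 357 at 10 months. Of the 10 older libraries 6 lay above every younger one in CPM, and the rest overlapped. The log2 change was 0.30 (SE 0.11, interval 0.07 to 0.52, adjusted p = 0.351 by edgeR). In quadriceps Myl2 changed by -0.04 (interval -0.37 to 0.29), and the log2 changes of the 10 genes lay between -0.09 and 0.01 there. None of the slow fibre, fast fibre or further thin filament genes passed the test with age in either muscle.

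Exercised mice at 18 months were also set against sedentary mice at 10 months. Of the 10 genes, edgeR called 0 in either muscle, where 6.73% of all genes were called in gastrocnemius and 11.1% in quadriceps. Unadjusted, 1 gene was under 0.05 in each muscle, Myl2 in both. Its log2 change was 0.30 in gastrocnemius (interval 0.09 to 0.52, adjusted p = 0.0739 by edgeR) and 0.38 in quadriceps (0.07 to 0.69, adjusted p = 0.0958). Without the exercised library Gas_10.1 it passed in gastrocnemius, at 0.34 (adjusted p = 0.0386). DESeq2 called 0 in both muscles, and limma-voom called 0 in gastrocnemius and 1 in quadriceps, the fast troponin C gene Tnnc2. All 4 fast genes had negative changes in both muscles, between -0.16 and -0.07. Around them, 6 of the 15 genes of the slow list rose in gastrocnemius and 7 in quadriceps, led by Sln with 1.62 and 1.86. These contrasts share groups with those above and are no separate evidence.

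**Figure D2:**
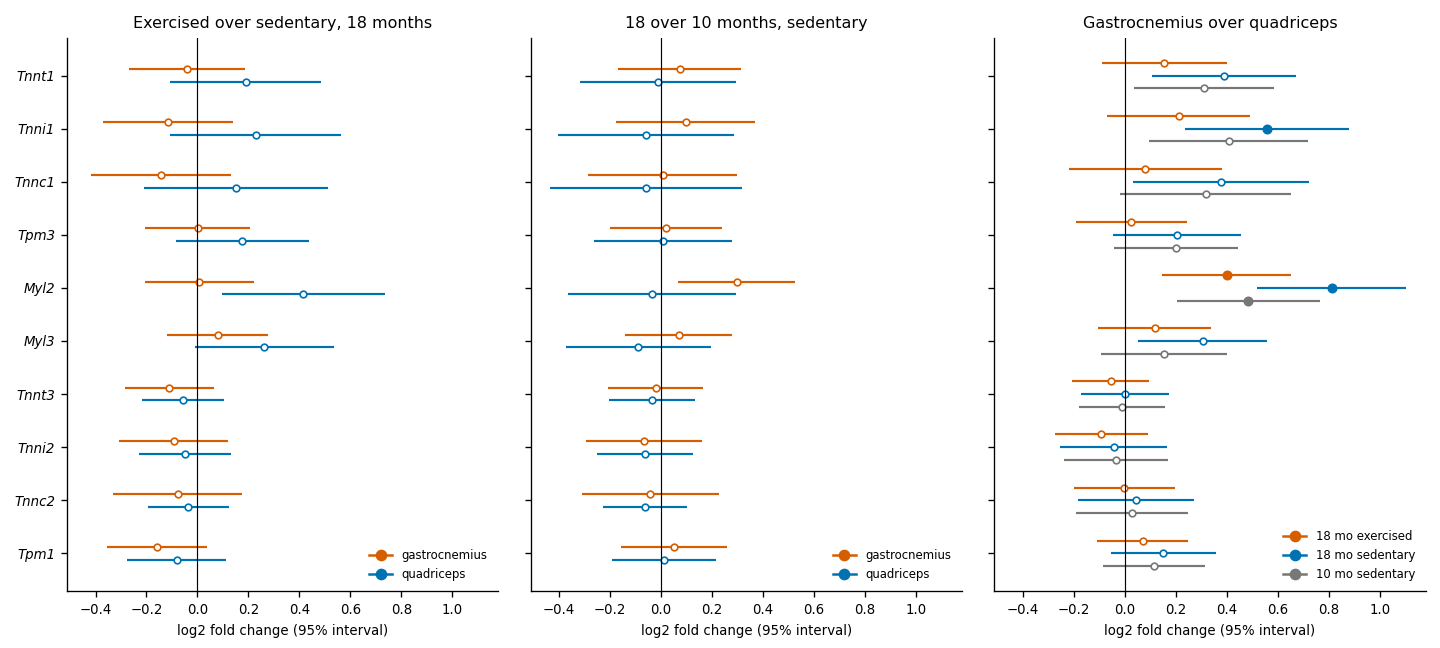
Log2 fold changes of the 10 genes with 95% intervals for exercise at 18 months and for age in sedentary mice, each in both muscles, and for gastrocnemius over quadriceps in 3 conditions. Filled points passed an adjusted p under 0.05 by edgeR and open points did not; the filled points are Myl2 between the muscles in all 3 conditions and Tnni1 between the muscles in sedentary 18-month mice.

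Whether exercise or age acted differently on the 2 muscles was tested as a difference of effects over 64 libraries. For neither effect was any of 15433 genes called by edgeR, with 357 genes at an unadjusted p under 0.05 for exercise and 232 for age. DESeq2 and limma-voom called 0 of the 10 genes for either. The exercise effect on Myl2 was smaller in gastrocnemius than in quadriceps by 0.41 on the log2 scale (interval -0.80 to -0.03, unadjusted p = 0.0354 by edgeR), and all 10 differences of the exercise effect were negative. A difference between the muscles was therefore not shown for any gene.

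Of the 10 genes, Myl2 differed most between gastrocnemius and quadriceps, and it was higher in gastrocnemius in all 3 conditions. In sedentary 18-month mice it had 318 to 608 TPM with a median of 443 in gastrocnemius, against 149.99 to 275 with a median of 238 in quadriceps. All 10 gastrocnemius libraries lay above every quadriceps library in TPM and in CPM. The log2 difference was 0.81 (SE 0.15, adjusted p = 4.82e-05 by edgeR). In exercised 18-month mice Myl2 had 306 to 584 TPM with a median of 449.6 in gastrocnemius, against 221 to 382 with a median of 283 in quadriceps, a difference of 0.40 (SE 0.13, adjusted p = 0.0196 by edgeR). The groups overlapped there, with 8 of 13 gastrocnemius libraries above every quadriceps one in CPM. In sedentary 10-month mice the values were 253 to 433 with a median of 357 in gastrocnemius, against 91.0 to 311 with a median of 245 in quadriceps, and in CPM 5 of 10 gastrocnemius libraries lay above all of quadriceps. The difference was 0.48 (SE 0.14, adjusted p = 0.0162 by edgeR).

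Tnni1, the slow troponin I, was the other gene called between the muscles, in sedentary 18-month mice. It had 65.6 to 158 TPM with a median of 99.2 in gastrocnemius, against 31.2 to 96.9 with a median of 66.5 in quadriceps. The groups overlapped, with 5 of 10 gastrocnemius libraries above all of quadriceps in CPM. The log2 difference was 0.56 (SE 0.16, adjusted p = 0.0132 by edgeR). At 10 months it was 0.41 (adjusted p = 0.0818) and in exercised mice 0.21 (adjusted p = 0.304), neither of them past the threshold. The 10-month difference did pass with the library number as a replicate block, a setting described below. Without the library Quad_1.3 the 10-month difference was 0.47 (adjusted p = 0.0495 by edgeR). In sedentary 18-month mice the slow troponin T gene Tnnt1 had 0.39 (adjusted p = 0.0567 by edgeR), the slow troponin C gene Tnnc1 0.38 (0.144) and Myl3 0.30 (0.104). These genes, too, passed with that block. Without the 10-month library Quad_3.1 both Tnnt1 and Myl3 passed, so the count of genes called was 4 in place of 2. DESeq2 called 3 there, with Tnnt1 past the threshold (adjusted p = 0.0441), and limma-voom called 5, adding Tnnt1, Myl3 and the fast gene Tpm1.

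Counted over the 10 genes, 2 were called in sedentary 18-month mice, where 13.1% of 15433 genes were, 1 in exercised 18-month mice, where 18.5% were, and 1 in sedentary 10-month mice, where 10.9% were. Those counts, from the fit without a block, are near the share of all genes in that fit. Myl2 had the largest difference of the 10 genes in each condition, and its place among all genes tested was not ranked. With the library number as a replicate block, 5 of the 10 genes were called in sedentary 18-month, 1 in exercised and 3 in 10-month mice. That block called 3807, 5894 and 3711 genes in all, in the same order. The 6 slow genes had a median difference of 0.14 in exercised, 0.38 in sedentary 18-month and 0.31 in sedentary 10-month mice. The 4 fast genes had medians of -0.03, 0.02 and 0.01 in the same order. None of the fast genes was called by edgeR, and their intervals reached no further than 0.36 in size. Myl2 was called under every alternative setting in all 3 conditions.

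Genes of the slow fibre list, outside the 10, moved in both directions between the muscles. In sedentary 18-month mice 5 of 15 were higher in gastrocnemius, among them the slow myosin Myh7 (0.59), the slow calcium pump Atp2a2 (0.47) and the carbonic anhydrase Car3 (0.85). Lower were 2, Mybpc1 (-0.30) and the fatty acid carrier Fabp3 (-0.46), where 13.1% of all genes were called in either direction. The IIx myosin Myh1 was lower in gastrocnemius by 0.76 in these mice, by 0.55 in exercised and by 0.69 in 10-month mice. Of 19 further thin filament genes, Tpm2, the beta tropomyosin shared by both fibre kinds, was lower in gastrocnemius in all 3 conditions (-0.48 in exercised, -0.52 in sedentary 18-month and -0.55 in 10-month mice). Tnnt2, the cardiac and embryonic troponin T, was higher in sedentary mice at 18 months (0.47) and 10 months (0.48). Markers of other cells differed too: in sedentary 18-month mice 5 of 6 adipocyte genes were lower in gastrocnemius, and the 6 summed to 351 to 549 TPM there and to 233 to 1288 in quadriceps. Their part in the differences of Myl2 and Tnni1 was not tested.

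Across muscle libraries the 6 slow genes varied together, as did the 4 fast ones. Correlations were taken over 64 libraries as deviations from each group's mean log2 CPM, so no difference between groups enters them. They are a description, since libraries share depth and RNA quality. The 15 pairs of slow genes had r between 0.56 and 0.93 with a median of 0.78, and the 6 pairs of fast genes between 0.78 and 0.97 with a median of 0.85. The 24 slow with fast pairs had r between 0.08 and 0.60 with a median of 0.32. Without Gas_3.1, Gas_2.2 and Quad_3.1 that median was 0.17, and those within the slow and fast sets were 0.78 and 0.86. Slow and fast genes therefore formed 2 groups that varied largely apart.

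Among the slow genes, Tpm3 followed the 3 slow troponins most closely (r = 0.91 with their mean), ahead of Myl2 (0.77) and Myl3 (0.71). The libraries at the ends of the slow set were Quad_8.2, 0.94 below its group on the log2 scale, and Gas_9.3, 0.72 above its group, both sedentary at 18 months. Of all genes outside the 10 with a mean of 1 or more in log2 CPM, Myh7 was most like the slow troponins (r = 0.76), followed by Atp2a2 (0.71), the slow myosin Myh7b (0.58), Tmem141 (0.52) and Prkag1 (0.50), a subunit of the energy sensor AMPK. Within quadriceps alone Myh7 had 0.88 and Atp2a2 0.86, and within gastrocnemius 0.61 and 0.51. The genes most like the fast troponins were Rtn2 and Drap1 (both 0.96), Elob (0.95), Pebp1 (0.94), Map2k2 (0.94) and the pointed end cap Tmod4 (0.93). The mean of the fast troponins also followed a measure of each library, the correlation of its deviations with gene length, at r = -0.74, where the slow mean had -0.35. The part of that measure in the shared variation was not tested.

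**Figure D3:**
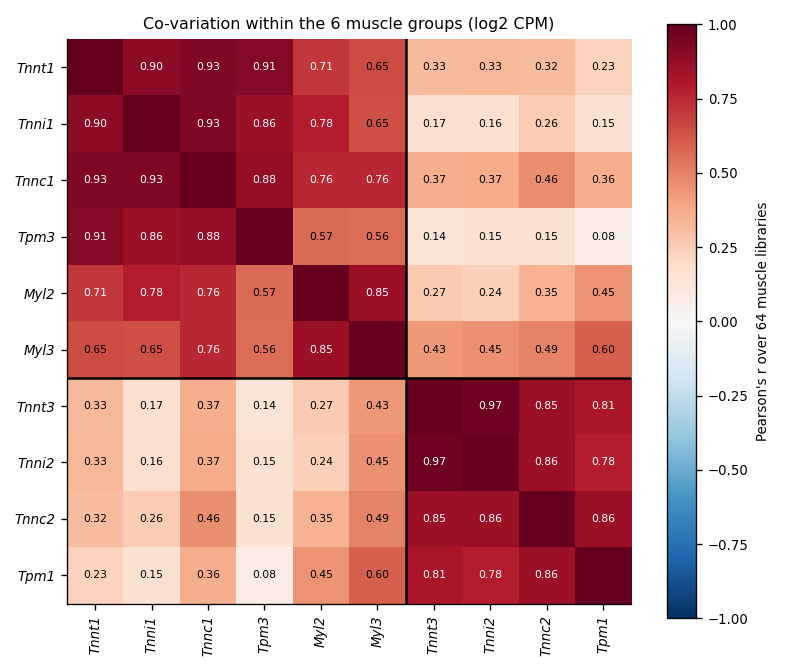
Correlation of group-centred log2 CPM between the 10 genes over 64 muscle libraries. The slow block holds r from 0.56 to 0.93, the fast block from 0.78 to 0.97, and the pairs between the blocks from 0.08 to 0.60.

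In the spinal cord the 10 genes stood in another order, and all but Tpm3 had lower medians in TPM than in either muscle. Medians over 33 cord libraries were 109 TPM for Tpm1, 66.7 for Tnnc2, 45.7 for Tnnt3, 41.7 for Tpm3, 23.9 for Tnni1, 23.2 for Tnni2, 7.32 for Tnnc1, 1.81 for Myl2, 1.48 for Tnnt1 and 1.42 for Myl3. Several neighbours in this order did not differ beyond their spread, such as Tnnt3 with Tpm3 and Tnni1 with Tnni2. The median ratio of Tnni2 to Tnni1 was 0.98 in cord, against 103 in gastrocnemius and 147 in quadriceps. Set against the mean of both muscles at 10 months, all 10 were lower in cord by edgeR, where 92.1% of 19735 genes differed in either direction and 38.2% were lower. The log2 changes ran from -10.25 for Tnnt3 to -3.49 for Tnni1 and -1.36 for Tpm3, where the median of all genes was 0.40. With library totals in place of normalization factors that median was 1.54 and Tpm3 changed by -0.21. In TPM Tpm3 had 41.7 in cord, 38.4 in gastrocnemius and 33.2 in quadriceps, so its direction depends on the scale.

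In cord the 10 genes split by whether they followed a list of 10 skeletal muscle markers. These were Ckm, Acta1, Myh1, Myh4, Mylpf, Atp2a1, Actn3, Casq1, Neb and Eno3, most of them fast fibre genes and none a slow fibre gene. Slow forms were a small share of their pairs in muscle. A low r of a slow gene with this list therefore cannot tell whether its RNA came from muscle. The list summed to 144 to 956 TPM in exercised 18-month, 137 to 899 in sedentary 18-month and 141 to 1018 in sedentary 10-month cord. In muscle it summed to 100100 to 159863 TPM. None of the 10 markers was at 0 in every cord library. Over 33 cord libraries the log2 TPM of Tnnt3, Tnni2, Tnnc2 and Tpm1 followed that sum at r = 0.99, 0.99, 0.98 and 0.96, while the 6 slow genes had r between -0.18 and 0.40. Tnnt3 ranged 9.43-fold over the cord libraries, from 16.8 to 159 TPM, whereas Tpm3 ranged 1.21-fold and Tnni1 1.65-fold.

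Each gene was also set per 1000 TPM of those markers, in cord relative to muscle. Tnnt3 came to 0.87, Tnnc2 to 0.97 and Tnni2 to 0.98 of the muscle value, so these 3 fast troponins stood to the markers in cord much as they did in muscle. The slow light chains Myl3 and Myl2 came to 1.44 and 2.41 times it, Tnnt1 to 4.07, Tpm1 to 5.77 and Tnnc1 to 14.8. Tnni1 came to 133 times and Tpm3 to 521 times the muscle value. The source of the muscle markers in cord was not tested.

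**Figure D4:**
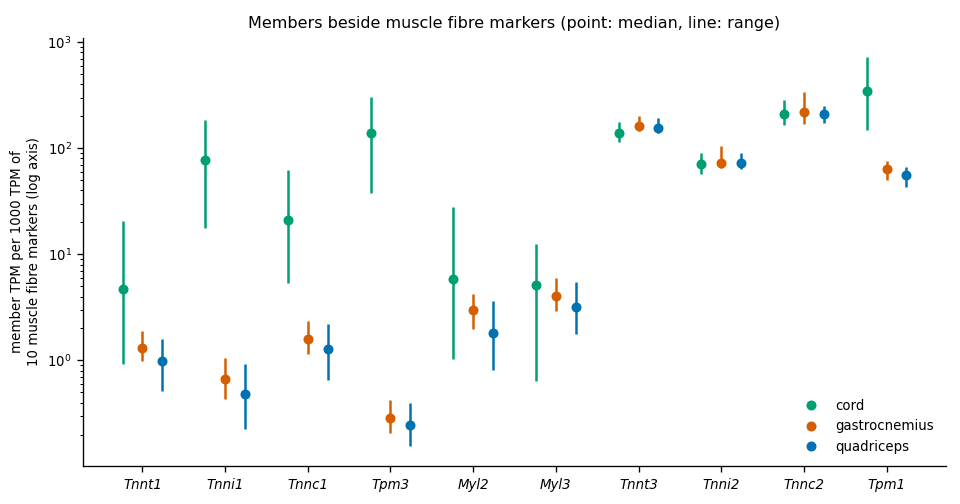
Level of each of the 10 genes per 1000 TPM of 10 skeletal muscle markers (log10 axis) in cord, gastrocnemius and quadriceps; points are medians over libraries and lines run from the lowest to the highest library. The fast troponins Tnnt3, Tnni2 and Tnnc2 lie at similar heights in all 3 tissues, and Tpm3 and Tnni1 lie 521 and 133 times higher in cord than in muscle by their medians.

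Tnni1 and Tpm3 were higher in sedentary cord at 18 months than at 10 months. Age and the first part of the library number cannot be told apart there. In TPM Tnni1 had 18.7 to 29.0 with a median of 25.2 in sedentary 18-month cord, against 17.6 to 22.8 with a median of 20.7 at 10 months. Of the 10 older libraries 7 lay above every younger one, and the rest overlapped. It averaged 13.1 ± 1.96 CPM in sedentary 18-month and 10.7 ± 0.99 CPM in 10-month cord (SD, n = 10 each), a log2 change of 0.28 (SE 0.07, adjusted p = 0.0138 by edgeR). Tpm3 had 40.7 to 46.0 TPM with a median of 42.3 in sedentary 18-month cord, against 38.0 to 45.8 with a median of 40.1 at 10 months. Nearly all libraries overlapped, with 1 older one above the younger maximum in CPM. The log2 change was 0.12 (SE 0.03, adjusted p = 0.0200 by edgeR). Of the 10 genes 2 were thus called, where 5.35% of 18956 genes were.

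Both calls with age were close to the threshold. Without SC_5.2 and SC_6.1 Tnni1 changed by 0.23 (adjusted p = 0.0543 by edgeR), in a fit of the compared groups alone by 0.29 (0.0688), and with the gene length measure as a covariate, added later, by 0.21 (0.0534). Tpm3 changed by 0.12 (0.0622) in that fit, and by 0.11 (0.0508) without the 10-month library SC_2.3. With the summed muscle markers as a covariate, added after the data were seen, both kept their calls, at 0.30 for Tnni1 and 0.12 for Tpm3. Macrophage markers rose in the same comparison: 3 of 5 passed, Cd68 by 0.89, C1qa by 0.71 and Adgre1 by 0.40. Of all genes, 5.35% were called there in either direction. The 5 summed to 288 to 363 TPM in sedentary 18-month and 196 to 411 TPM in 10-month cord. Their part in the rise of Tnni1 and Tpm3 was not tested.

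Tnni1 was also higher in exercised 18-month than in 10-month sedentary cord. It had 21.4 to 27.1 TPM with a median of 24.5 in exercised cord, against the 17.6 to 22.8 TPM at 10 months given above. Of 13 exercised libraries 12 lay above every 10-month one. The averages were 12.9 ± 0.76 CPM in exercised (SD, n = 13) and 10.7 ± 0.99 CPM in 10-month cord (SD, n = 10), a log2 change of 0.26 (SE 0.06, adjusted p = 0.0229 by edgeR). It was the 1 gene of the 10 called, where 1.51% of all genes were, and it passed under every alternative tried. Cd68 (0.72) and C1qa (0.49) rose there too, and the macrophage markers summed to 251 to 331 TPM in exercised cord. Both comparisons use the same 10-month libraries.

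Exercise at 18 months changed no gene in cord by edgeR, with 0 of 18956 called and 2565 at an unadjusted p under 0.05. Of the 10 genes 2 were under that unadjusted level, Tpm3 with a log2 change of -0.07 (interval -0.12 to -0.01) and Myl3 with -0.62 (-1.22 to -0.03), and DESeq2 and limma-voom called 0. For Tnni1 the change was -0.02 (interval -0.14 to 0.11). Myl3 rested on few reads, with 3 to 46 counts per cord library.

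**Figure D5:**
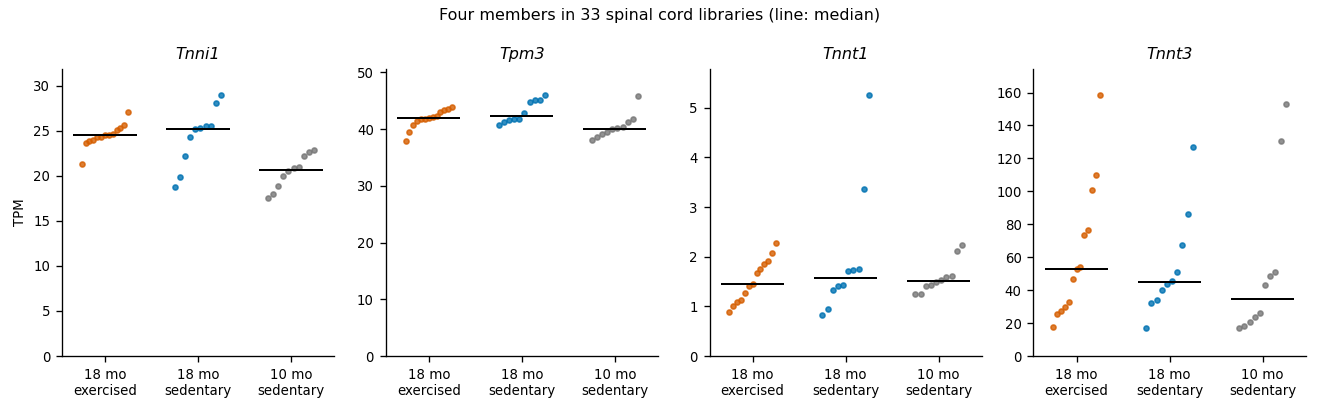
Levels of Tnni1, Tpm3, Tnnt1 and Tnnt3 in TPM (linear axes from 0, a scale for each gene) in spinal cord, 1 point per library sorted by value within a condition, with exercised 18-month libraries first and the median as a line. Tnni1 lies between 17.6 and 29.0 TPM and Tpm3 between 37.9 and 46.0 TPM, while Tnnt1 spreads from 0.83 to 5.26 TPM and Tnnt3 from 16.8 to 159 TPM.

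Tnnt1 stood out in 2 cord libraries. SC_10.4 and SC_9.3, both sedentary at 18 months, had 5.26 and 3.37 TPM, where the cord median was 1.48 TPM. The gene most like Tnnt1 over 33 cord libraries was Myh7 (r = 0.74), and without those 2 libraries its r was 0.54. Next came Poc1b (0.60), Zfp354b (0.56), Tpx2 (0.50) and Spa17 (0.50). Tnnt1 itself had only 17 to 132 counts per cord library. Genes named here and for Tnni1 below are the highest among all compared, and how high r runs for unrelated genes was not tested. For Tnni1, a choice made after the data were seen, the gene most like it was Cercam (0.83), followed by Tle6 (0.69), LOC102632463 (0.69), Foxred1 (0.68) and Fhit (0.68). In cord Tnni1 and Tnnt1 shared r = 0.27, where slow pairs in muscle had at least 0.56. With the other slow genes Tnnt1 had r = 0.57 for Myl2, 0.56 for Tnnc1, 0.54 for Myl3 and 0.22 for Tpm3 in cord. Tnni1 had 0.34 for Tnnc1, 0.08 for Tpm3, 0.05 for Myl2 and -0.04 for Myl3. Those correlations use group-centred log2 CPM and share depth and library quality.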

How the data were processed

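The submitters' processing notes name STAR 2.5.2b and GRCm38.p5. Which program counted the reads, and whether by strand, is not stated in the labels. Raw counts per Entrez gene were deposited by the authors, with TPM values made from those counts and gene lengths. The 49 genes without a symbol were kept under their ID. Of 99 labelled samples, 97 had a column, and Quad_10.4 (sedentary, 18 months) and Quad_10.2 (exercised, 18 months) were not analysed here.

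Counts were tested with edgeR 4.0.16 (quasi-likelihood F test, TMM factors, filterByExpr with a minimum count of 10 and a minimum total of 15) in R 4.3.3. Each tissue had 1 fit over its 3 groups. A fit over both muscles gave the contrasts between muscles, and a fit over all libraries gave cord against muscle. Fold changes are log2 values, p-values are two-sided and Benjamini-Hochberg adjusted over all genes of a fit, and a gene was called under 0.05. The script was tested on simulated data. Intervals are 95% and cover the spread between libraries. No pair within a group agreed within sampling noise, the closest having a chi-square of 3.23 per gene.

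Alternatives were DESeq2 1.42.0, limma-voom (limma 3.58.1), RLE factors, library totals, no filter, libraries left out, the compared groups alone and a replicate block. A gene length covariate, a muscle marker covariate in cord, and likeness without stray libraries were added after seeing the data. Named genes were the 10 members, called genes of the fixed lists, and the genes most alike in covariation. The members and lists were chosen with earlier results of these data known.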

Additional observations from a re-analysis of the deposited data

Results flagged for a closer look

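In 9 of 60 combinations of gene and group of 9 or 10 libraries, 1 library lay farther from its neighbour than Dixon's 95% limit allows. Chance gives that in about 1 of 20. The fast troponins met it together in sedentary 10-month library Gas_2.2, with 29906 TPM for Tnnt3, 16016 TPM for Tnni2 and 51805 TPM for Tnnc2, each the highest of its group. Of the other libraries at 10 months, Gas_3.1 was lowest for Tpm1 (5641.5 TPM) and Myl3 (346 TPM), Quad_3.1 was lowest for Tpm1 (4880.43 TPM) and SC_3.1 was highest for Tpm3 (45.8 TPM). Sedentary 18-month library Gas_9.3 was highest for Tnnt1 (290.5 TPM), where the others reached 221 TPM. Sedentary 18-month library Quad_8.2 was lowest for Myl2 (149.99 TPM), where the others began at 215 TPM.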

How the results depend on the processing

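No fold change of the 10 genes turned its direction after being called, and all log2 ratios of slow to fast partners stayed within 1 SD. Counts of the 10 genes called by edgeR moved as follows. Exercise gave 1 in gastrocnemius with limma-voom, and 1 in quadriceps with limma-voom or without the libraries apart. Exercised 18 against sedentary 10 months gave 1 in gastrocnemius with library totals, and 1 in quadriceps with limma-voom or the length covariate. Ageing in cord gave 1 without the libraries apart, 1 with the length covariate and 0 with the compared groups only. Gastrocnemius against quadriceps at 10 months gave 2 with library totals and 2 with the length covariate, and in sedentary 18-month mice 3 with DESeq2, 4 with library totals, 5 with limma-voom and 4 without the libraries apart. Leaving out 1 library gave 1 to 2 in ageing cord (1 without SC_2.3), 0 to 1 for exercise in quadriceps, 0 to 1 for exercised 18 against 10 months in gastrocnemius, 1 to 2 between muscles at 10 months and 2 to 4 in sedentary 18-month mice.

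Same-numbered muscle libraries did not meet the rule for pairing, since the lowest correlation of their deviations over 31 pairs was -0.15, though the median was 0.40 and 29 pairs exceeded 0.1. As a hint from the data, 22 of the 31 gastrocnemius libraries correlated best with their own number in quadriceps. With the number as a replicate block, between muscles 3 of the 10 genes were called at 10 months, 5 in sedentary 18-month and 1 in exercised mice, and genes called numbered 3711, 3807 and 5894. The block added Tnnt1 (0.32, adjusted p = 0.0257 by edgeR) and Tnni1 (0.45, 0.0119) at 10 months, and Tnnt1 (0.40, 0.00950), Tnnc1 (0.38, 0.0432) and Myl3 (0.29, 0.0447) in sedentary 18-month mice.

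Counts over all genes moved by over 1.5 times in 51 combinations of a comparison and a setting, and stayed within that in 74. With 1 library left out, 67 such combinations moved and 641 stayed. Without the libraries apart, exercise gave 686 genes in gastrocnemius in place of 16 and 341 in quadriceps in place of 112. Ageing gave 49 in gastrocnemius in place of 23, 113 in quadriceps in place of 52 and 454 in cord in place of 1015, and exercised 18 against sedentary 10 months gave 689 in cord in place of 286. Between muscles the same setting gave 4409 in exercised, 3353 in sedentary 18-month and 3886 in 10-month mice, in place of 2848, 2016 and 1687. The first part of the library number as a block gave 1360 genes for exercise in gastrocnemius and 94 in quadriceps, with 0 of the 10 genes called in either. Library totals shifted the split of higher to lower calls. Between muscles in exercised mice it was 2493 to 461 in place of 1482 to 1366, and for exercise in gastrocnemius 127 to 10 in place of 11 to 5. For ageing in cord it was 694 to 278 in place of 535 to 480. Light chain and Tnnt1 counts in cord were low, so small changes there were not detectable at this depth.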

Other observations

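Embryonic and neonatal contractile genes, which fibres use before birth and during repair, were set beside the adult forms. None of 7 was called for exercise or for ageing in either muscle. In exercised 18-month against sedentary 10-month quadriceps 3 of the 7 rose, the embryonic myosin Myh3 by 0.88 on the log2 scale, the cardiac actin Actc1 by 1.66 and the neonatal myosin Myh8 by 0.42. In gastrocnemius the same comparison gave 1 lower gene, the smooth muscle actin Acta2 (-0.29). Of all genes, 11.1% were called in that comparison in quadriceps and 6.73% in gastrocnemius. Quadriceps medians over all conditions were only 1.17 TPM for Myh3 and 2.34 TPM for Myh8. Between muscles 2 of the 7 were higher in gastrocnemius and 2 lower in exercised mice. In sedentary 18-month mice 4 were higher and 1 lower, and in 10-month mice 3 higher and 1 lower, with Acta2 lower in each condition. Of all genes, 18.5%, 13.1% and 10.9% were called in the same order. Myh3 was higher in gastrocnemius in exercised (0.57), sedentary 18-month (1.17) and 10-month mice (1.03). The cardiac troponin genes next to slow ones had low levels: Tnni3, 1.92 kb from Tnnt1, had a median of 0.445 TPM in gastrocnemius and 0.50 TPM in quadriceps, and Tnnt2, 25.4 kb from Tnni1 with Lad1 between, had 6.95 and 5.14 TPM.

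Regulators of fibre type were counted as a list of 19. For exercise and for ageing 0 were called by edgeR in either muscle. In exercised 18-month against sedentary 10-month quadriceps 1 rose, Ppargc1b (0.29), and 4 fell, among them Tead1 (-0.41) and Myod1 (-0.44). In gastrocnemius Myod1 (-0.54) and Tead1 (-0.32) fell. Of all genes, 11.1% were called in that comparison in quadriceps and 6.73% in gastrocnemius. Between muscles 4 of the 19 were higher in gastrocnemius and 1 lower in exercised mice, 4 and 1 in sedentary 18-month and 4 and 2 in 10-month mice, where 18.5%, 13.1% and 10.9% of all genes were called. Among the lower ones were Vgll2 in sedentary 18-month (-0.55) and Tbx15 in 10-month mice (-0.29). Tead1 was higher in all 3 (0.35, 0.26 and 0.27 in that order). Ppargc1a, a driver of oxidative metabolism, was higher in gastrocnemius in exercised (0.24), sedentary 18-month (0.32) and 10-month mice (0.30), and so was its partner Esrrg (0.45, 0.58 and 0.44 in the same order).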
